A study of Homo sapiens with 16 samples.

Results

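RPMI-8226 is a human multiple myeloma (MM) cell line, a line of malignant plasma cells. The departure from additivity was examined in all 8 RPMI-8226 arrays, out of 16 arrays in the series, with 2 arrays in each of 4 groups. RPMI-8226 cells were treated for 6 days with DMSO, with the EZH2 inhibitor GSK126 (1 μM), with the G9a inhibitor UNC0638 (1 μM), or with GSK126 + UNC0638 (1 μM each), and total RNA was hybridized to 1-colour Agilent gene expression arrays. The other 8 arrays hold the same treatments in MM.1S, another MM cell line, and are used here only for comparison. The question was which genes needed both inhibitors to be expressed, and whether the effect of the combination was greater than the effects of the single agents put together.

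EZH2 is the catalytic subunit of Polycomb repressive complex PRC2, which places methyl groups on lysine 27 of histone H3, and G9a, encoded by EHMT2, methylates lysine 9 of the same histone. Both marks are found on silent genes, among them many genes used only in other tissues. GSK126 and UNC0638 block the activity of these enzymes, so that the marks are lost as cells divide. On a log2 scale, the departure from additivity is the change with GSK126 + UNC0638 from DMSO minus the GSK126 change and minus the UNC0638 change. A departure of 0 means that the fold changes of the single agents multiply, and a positive departure means that the combination gave more than that.

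All 8 plasma cell markers tested (SDC1, TNFRSF17, XBP1, IRF4, PRDM1, SLAMF7, MZB1 and CD38) were well above background on all 8 arrays, which fits the label of the cell line. Their summed signal was 25776 to 30253% of the array's 75th percentile in DMSO and 16241 to 21036% with GSK126 + UNC0638. The signal of markers of other cells moved with the combination as well. The summed signal of 5 T cell markers was 177 to 195% in DMSO and 1375 to 1561% with both inhibitors, and that of 7 monocyte or granulocyte markers was 661 to 997% and 1834 to 2111%, respectively. The defining T cell markers CD3D, CD3G, CD2 and CD8A were above background on all 8 arrays, DMSO included. So were the monocyte markers CD14, CSF1R and CD33, whereas 3 of the 7 monocyte or granulocyte markers were above background on no array. The sum of 6 fibroblast markers was 50.7 to 87.2% in DMSO and 92.8 to 234% with both inhibitors, with DCN above background on all 8 arrays and 2 markers on none. That of 5 erythroid markers was 67.9 to 71.1% and 75.2 to 135%, with 2 of them, KLF1 included, on all 8 and 2 on none. That of 6 epithelial markers was 8338 to 9791% and 6952 to 7009%, with 4 of them on all 8 and 2 on none. The part of these markers in the results was not tested, and in cultures measured in bulk, fewer cells of a type and less RNA per cell cannot be told apart. Between 46.5 and 49.6% of spots were well above background on an RPMI-8226 array.

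Genes were first sorted by whether they were detected at all. The scanner software calls a spot well above background by a fixed test, and a probe was taken as detected in a group when both arrays passed and as not detected when neither did. Of 50599 probes, 24777 were detected in no RPMI-8226 group and 19932 in all 4. In 45444 probes, each group had both arrays or neither above background. Among these, between the extremes, the most frequent pattern by far was detection with both inhibitors only. It was shown by 303 probes of 280 gene symbols. By contrast, 20 probes were detected only with UNC0638, 12 only with GSK126 and 34 only with DMSO, and 55 were lost only with the combination. Among the 880 probes that were not detected in DMSO but were detected with GSK126 + UNC0638, UNC0638 alone sufficed for 107, GSK126 alone for 69 and either agent for 54, whereas 347 were above background on 1 of the 2 arrays of at least 1 agent. Neither agent reached detection on any array for the 303, or 34.4% of the 880. A further 730 probes were above background on only 1 of the 2 GSK126 + UNC0638 arrays and on no array of the other groups.

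**Figure D1:**
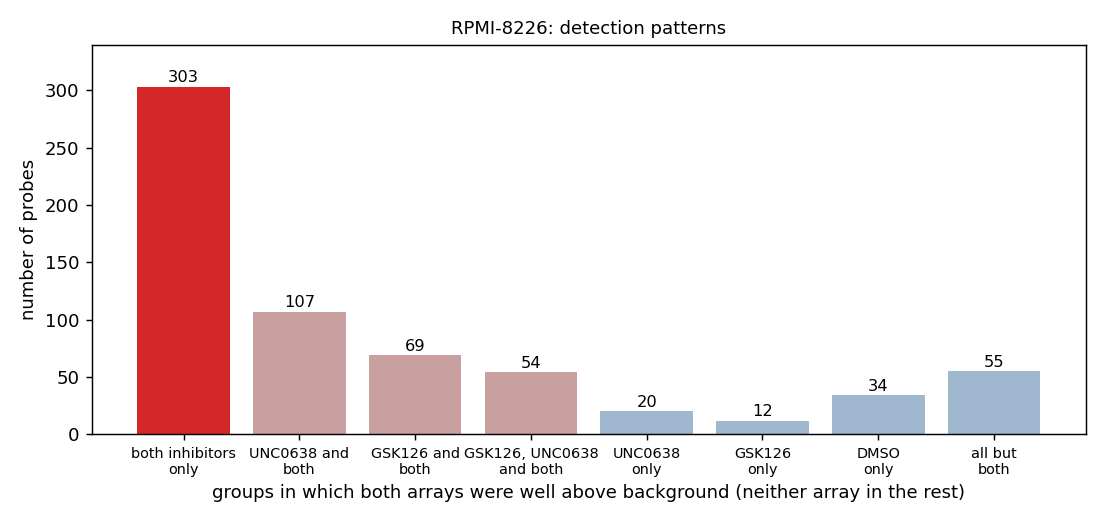
Number of probes (vertical axis) by detection pattern in RPMI-8226 (horizontal axis), where a group counts as detected when both of its arrays were well above background. The bar for detection with both inhibitors only stands at 303, against 107, 69 and 54 for the patterns in which at least one single agent sufficed and 12 to 55 for the others drawn. The other 6 mixed patterns, with 2 to 25 probes each, and detection in no group or in all are not drawn.

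The 303 probes were mostly dim. Their signal with GSK126 + UNC0638 had a median of 11.4% of the 75th percentile on replicate 1 and 9.63% on replicate 2, whereas the lowest signal that passed as well above background was 4.68 to 6.41% depending on the array. For such probes the levels in the other groups are only upper limits, so the fold over each of them is given as a lower limit, in which a dim signal counts as the lowest passing one of its array unless it was itself brighter. The smallest of the 3 lower limits had a median of 1.89-fold over the 303 probes and exceeded 2-fold for 136 and 8-fold for 13. The departure itself has no limit in either direction for these probes, because the DMSO level it adds back is also only an upper limit. Moreover, the scanner software replaces signals close to background with a substitute value, and 44.8% of the 1818 signals of these probes in the other groups were such substitutes. The set also depended on the detection rule. With 1 array left out, so that a single array decided for that group, it numbered 310 to 362 for an array of the other groups, 478 without GSK126 + UNC0638 replicate 1 and 858 without replicate 2. By another flag of the scanner software, positive and significant signal, 310 probes showed the pattern, and only 16 of them were among the 303.

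The genes detected only with both inhibitors and furthest above all other groups were of varied tissues. SLN encodes sarcolipin, a regulator of the calcium pump of muscle. Its signal was 2.84 and 1.41% of the 75th percentile in DMSO, 1.56 and 2.13% with GSK126, 2.55 and 2.22% with UNC0638, and 159 and 93.1% with both. It was thus at least 21.4-fold higher with the combination than in any other group. FGFBP1 encodes a secreted carrier of fibroblast growth factors, and the combination gave 98.7 and 70.9%, against at most 4.74% on any of the other 6 arrays, at least 14.7-fold higher. DAB2, an endocytic adaptor protein, reached 47.4 and 114% against at most 4.76%, at least 12.9-fold higher. GNG11, a G protein gamma subunit, reached 65.5 and 59.5%, at least 11-fold higher, but 1 GSK126 array gave 6.36%, the other 1.78%, and neither passed as well above background. In each of these genes the combination arrays lay far above the other 6 arrays, which did not overlap with them.

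GRP and PRL encode peptide hormones, gastrin-releasing peptide and prolactin. The GRP signal was 1.37 and 1.52% in DMSO, 1.65 and 1.46% with GSK126, 3.82 and 4.11% with UNC0638, and 45.2 and 54.1% with both, at least 8.69-fold higher. The PRL signal stayed between 1.14 and 1.58% on the other 6 arrays and was 55.3 and 43.4% with both, at least 8.61-fold higher. MAOA, which encodes the monoamine-degrading enzyme monoamine oxidase A, was at 2.74 to 5.44% elsewhere and at 36.6 and 49.8% with both, at least 7.50-fold higher. SPRR2A, a component of the cornified envelope of skin, gave 63.7 and 35.5% with both and at least 8.36-fold more than elsewhere, whereas C14orf34, of which no function is given here, gave 75.4 and 25.9%, at least 7.77-fold more. The combination arrays agreed less well for CSRP3, a muscle LIM protein gene, at 118 and 20.5%, and for the fetal globin gene HBG1, at 498 and 74.6%. HBG1 had the largest lower limit, 33.9-fold, but its other probe was above background on all 8 arrays and was not called above all other groups (limma adjusted p = 0.0854), so that the gene cannot be called silent in DMSO. Moreover, the coding sequence of HBG1 is nearly that of HBG2, and a probe may not tell the copies apart. The same doubt holds for the small proline-rich genes and for SSX1, XAGE3 and SPANXA1, which belong to families of similar copies. Being called above each of the other groups in limma's fit was part of the rule that chose these 11 genes, from SLN to HBG1. Their limma adjusted p-values ran from 0.000486 for GRP and PRL to 0.0244 for CSRP3 and HBG1. All 11 probes entered the test only through the combination group, so nothing is read from these p-values.

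The departure was then tested over the 23199 probes that were detected in at least 1 group. It was called in 34 probes (limma, Benjamini-Hochberg adjusted p under 0.05), or 0.147%, all of them positive, and no negative departure was called. Since 33 of the 34 entered the test only through the combination group, in which they are high, the sign and p of their departures are in large part fixed by the filter, and the count is given as a description from which nothing is read. At an unadjusted p under 0.05 there were 645 positive and 310 negative departures, and the lowest adjusted p of a negative one was 0.0542. Of the 34 probes, 33 were among the 303 detected only with both inhibitors, and the remaining one, XLOC_001133, an uncharacterized locus named after its values were seen, was also detected with UNC0638. None was detected on all 8 arrays. The 34 probes carried 31 symbols, of which 22 were named genes other than uncharacterized loci. Among the called probes that were detected only with both, 77.3% of the 198 signals in the other groups were substitutes, so the replicate spread on which these tests rest is in large part that of substituted values. When all signals under the lowest passing signal of their array were raised to it, an alternative chosen after seeing the data, 16 departures were called, of which 8 were among the 34. SLN, GRP, PRL, MAOA and DNM3 were called under both treatments of the dim signals, and FGFBP1, GNG11 and UBD, a ubiquitin-like gene, only with the raised ones. Other settings that ended most calls were normexp background correction with 4 calls, no filter on dim probes with 6, the other detection flag with 6 and an intensity-dependent prior variance with 0 (824 at an unadjusted p under 0.05).

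The hormone and secretory genes among the called probes included GRP and PRL, whose signals are given above. No single departure is printed for probes detected only with both inhibitors, as it could not be measured. TTR encodes transthyretin, a carrier of thyroid hormone made by liver and choroid plexus. Its signal was 0.935 to 1.29% on the other 6 arrays and 25.4 and 48.8% with both. CPE and PCSK5 encode enzymes that process hormone precursors, and CPB1 a pancreatic carboxypeptidase. Their combination signals were 11.1 and 7.57%, 8.13 and 7.23%, and 6.33 and 7.70%, respectively, not far above the lowest passing signal. The melanosomal enzyme gene TYRP1 was represented by 2 probes, both detected only with the combination and both called. The brighter of them gave 1.19 to 1.64% elsewhere and 21.3 and 19.3% with both.

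Signalling genes formed another part of the called set. DNM3, a dynamin of synapses and other membranes, was at 1.21 to 1.89% elsewhere and at 37.4 and 30% with both. PRKCA, encoding protein kinase C alpha, was at 1.05 to 1.40% elsewhere and at 30.5 and 19% with both. RASGRP1, an activator of Ras in lymphocytes, gave only 5.87 and 7.42% with both. Metabolic enzymes were represented by MAOA and by HNMT (16.8 and 12.4% with both), which inactivates histamine. HNMT was again measured by 2 probes detected only with both, of which 1 was called. The cancer-testis genes SSX1 and XAGE3, normally active in testis, gave 31.2 and 19.8% and 15.6 and 16.6%, and FAM9B, also an X-linked gene of testis, 9.33 and 10%. Other named genes with a called departure were the bile phospholipid transporter ABCB4, the colon antigen gene GPA33, the collagen gene COL1A2, which is also among the fibroblast markers given above, the platelet and endothelial protein gene MMRN1 and the proteoglycan gene SPOCK3. Computed with the substituted signals, the departure of the 34 probes ranged from 2.16 to 5.81 with a median of 3.35. The combination arrays never differed from each other by over 2-fold for the 33 probes detected only with both. Over all 303, they differed by over 2-fold for 58.

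**Figure D2:**
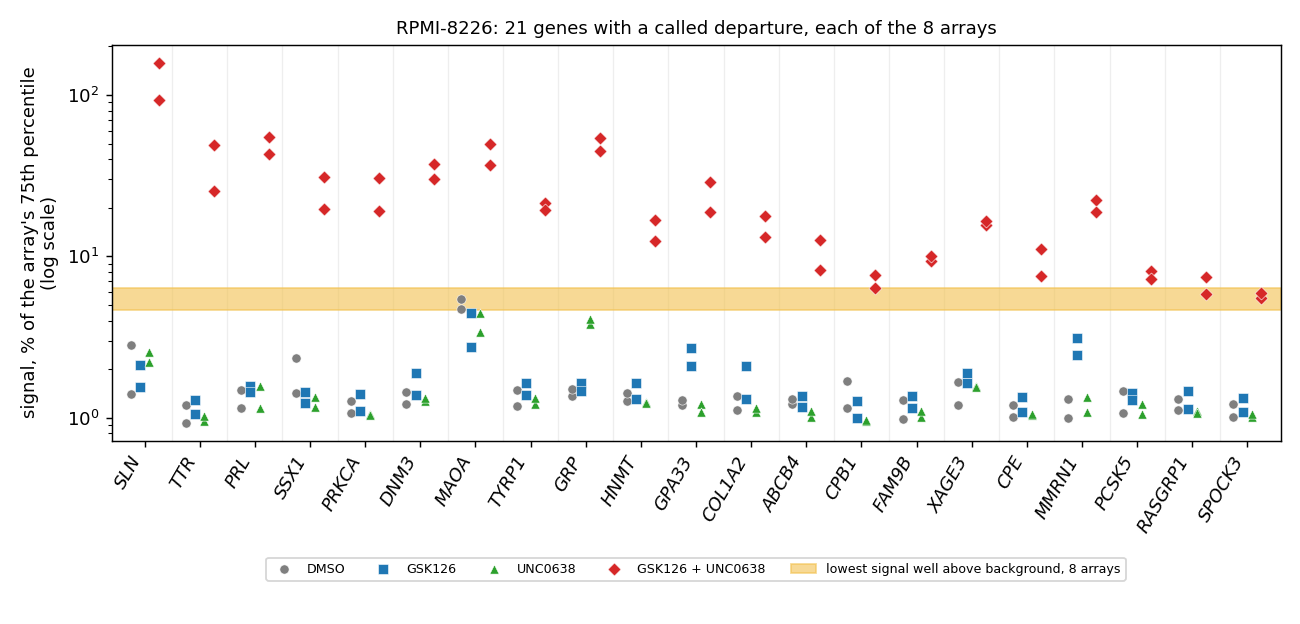
Signal of 21 named genes with a called departure (horizontal axis, ordered by departure) on each RPMI-8226 array, as a percentage of the array's 75th percentile on a log scale. Each point is 1 array, and the band spans the lowest signals that passed as well above background, from 4.68 to 6.41%. The GSK126 + UNC0638 points lie above those of the other groups for every gene, and the other groups lie under or at the band.

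The sequences before the start sites of GRP, DNM3, PRL and TYRP1, the called genes with the lowest adjusted p-values, are shown because PRC2 is known to act mainly at CpG-rich promoters. The array places their probes at chr18:56897918-56897977, chr1:172381687-172381746, chr6:22287558-22287617 and chr9:12709800-12709859 (GRCh37), as the array design assigns them. The 250 bases before each start site (RefSeq, GRCh38.p14) lie at chr18:59219908-59220157 and chr1:171841248-171841497 on the plus strand, at chr6:22297037-22297286 on the minus strand and at chr9:12693135-12693384 on the plus strand. They are given 5′ to 3′ on the strand of the gene with each CpG in capitals.

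GRP: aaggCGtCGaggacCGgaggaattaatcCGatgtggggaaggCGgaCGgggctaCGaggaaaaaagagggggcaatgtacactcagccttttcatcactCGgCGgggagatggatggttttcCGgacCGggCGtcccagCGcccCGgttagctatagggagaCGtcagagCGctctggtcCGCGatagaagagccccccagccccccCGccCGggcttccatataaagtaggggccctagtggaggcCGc

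DNM3: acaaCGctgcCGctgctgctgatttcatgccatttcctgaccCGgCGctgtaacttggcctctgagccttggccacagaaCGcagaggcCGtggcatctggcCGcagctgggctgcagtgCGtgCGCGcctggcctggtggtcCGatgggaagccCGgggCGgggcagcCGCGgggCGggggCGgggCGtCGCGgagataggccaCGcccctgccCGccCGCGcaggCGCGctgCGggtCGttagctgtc

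PRL: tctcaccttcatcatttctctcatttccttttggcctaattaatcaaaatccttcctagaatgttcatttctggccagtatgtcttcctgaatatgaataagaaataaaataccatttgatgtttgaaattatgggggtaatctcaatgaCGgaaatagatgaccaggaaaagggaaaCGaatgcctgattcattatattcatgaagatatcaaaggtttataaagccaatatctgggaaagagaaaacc

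TYRP1: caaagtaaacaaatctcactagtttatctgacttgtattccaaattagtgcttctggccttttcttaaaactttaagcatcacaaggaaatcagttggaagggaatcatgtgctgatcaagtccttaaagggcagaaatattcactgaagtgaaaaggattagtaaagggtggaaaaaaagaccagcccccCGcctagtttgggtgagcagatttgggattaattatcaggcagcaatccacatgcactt

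GRP has 21 CpGs in this window and DNM3 28, with a ratio of observed to expected CpG of 0.877 and 0.869, whereas PRL has 2 and TYRP1 1, with ratios of 0.277 and 0.103. Genes with and without CpG-dense promoters were therefore both among those detected only with GSK126 + UNC0638. Over the 27305 promoters in the RefSeq table, the ratio was above 0.6 in 47.4%. A promoter was found for 166 of the 221 named symbols detected only with both inhibitors, or 75.1%, so a comparison of promoter composition between these genes and others was void.

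Neighbouring genes appeared among the 303 probes, although these examples were chosen after their values were seen. Of 295 mapped probes with a symbol among the 303, 21 (7.12%) had a neighbour from the same set within 100 kb. Among all 21605 such probes kept for testing it was 81.8%, but that set is far denser. The shares therefore cannot be compared, and clustering was not tested. The keratinocyte genes SPRR1A, SPRR3, SPRR2D and SPRR2A lie in a row within 100 kb of each other at chromosome 1, from 152958192 to 153028658 (GRCh37). SPRR1A gave 140 and 33.3% with both and at most 4.70% elsewhere, SPRR3 19.3 and 7.08% against at most 3.80%, and SPRR2D 16 and 9.05% against at most 5.86%. Only SPRR2A of the 4 was above all other groups in limma's test, and none had a called departure. SPRR1A and SPRR2D each had another probe kept for testing, which did not show detection with both inhibitors only. Probes of SPRR2F and SPRR2C, of the same family, were above background on all 8 arrays, DMSO included. The beta-like globin genes HBB and HBG1 on chromosome 11 were detected together, HBB at 68.5 and 20.2% with both and at most 5.49% elsewhere. The chemokine genes CCL18 and CCL4 on chromosome 17 were likewise neighbours. CCL18 reached 30.4 and 10.4% with both and was at 1.13 to 1.53% elsewhere. CCL4 was measured by 2 probes, at 68.2 and 24.5% and at 48.1 and 12% with both, and both probes were detected in no other group, but CCL4 has a near-identical copy, CCL4L.

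Another test, on the same signals and filter, took the largest of 3 one-sided p-values (intersection-union test). It asked whether the combination was above each of the other groups. This was called in 196 probes of 182 symbols, or 0.845% of those tested, and the reverse, the combination below all other groups, in none, or 0%, at a lowest adjusted p of 0.102, although 1727 passed at an unadjusted p under 0.05. Of the 196 probes, 116 were detected only with both inhibitors and 37 on all 8 arrays. Another 40 were not detected in DMSO but reached background with a single agent on at least 1 array, and 3 fell in none of these classes. The 116 entered the test only through the combination, in which they are high. Their calls are thus in large part fixed by the filter, here and in the refits below, and nothing is read from them. All 34 probes with a called departure were among the 196. With the replicate number as a block in the fit, the called departures rose to 53, of which 50 were positive and 3 negative, and the probes above all other groups to 368, and each set held all probes called without the block. With 1 array left out, the departure calls fell to 0 without DMSO replicate 2, GSK126 replicate 2, UNC0638 replicate 1 or UNC0638 replicate 2, to 8 without DMSO replicate 1 and to 2 without GSK126 + UNC0638 replicate 1. Without GSK126 + UNC0638 replicate 2 they numbered 49, and without GSK126 replicate 1 they numbered 25. The calls above all other groups also fell under each of these omissions, the most without GSK126 + UNC0638 replicate 1. They numbered 128 and 123 without GSK126 replicate 1 and 2, and 127 without UNC0638 replicate 2. Of the 34 probes, none had a called departure in every refit that included it (4 to 12 of 18 or 19 refits), and 19 were above all other groups in every one.

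The 37 probes measured on all 8 arrays are those for which the effect of each agent alone can be read. FGGY, a carbohydrate kinase gene, had a signal of 22.5 and 23.7% in DMSO, 48.3 and 47.5% with GSK126, 75.6 and 76.1% with UNC0638, and 493 and 363% with both. It rose with UNC0638 (limma adjusted p = 0.0182) and did not pass the test with GSK126 (limma adjusted p = 0.0749), and the combination was 5.57-fold above the higher of them. Its departure was 1.42 ± 0.25 (SE, n = 2 arrays per group) and was not called (limma adjusted p = 0.219). PKIA, an inhibitor of protein kinase A, went from 12.8 and 11.1% in DMSO to 61.6 and 50.9% with both, with 14.5 to 18.2% under the single agents. Its departure was 1.43 ± 0.25 (limma adjusted p = 0.231). The sodium pump subunit gene ATP1B1 was at 65.8 to 74.7% in DMSO and 79.7 to 112% with a single agent, which did not pass the test, and gave 352 and 270% with both.

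In other measured genes the departure was smaller. CXCL6, a neutrophil chemokine, was at 8.09 and 7.78% in DMSO, 25.9 and 27.5% with GSK126, 36.2 and 37.7% with UNC0638 and 154 and 114% with both, and its departure was only 0.09 ± 0.24. The T cell receptor component CD3D had a signal of 16.7 and 15.8% in DMSO, 100 and 50.5% with GSK126, 79.1 and 67.9% with UNC0638 and 539 and 487% with both, and a departure of 0.67 ± 0.44. IL2RG, the shared gamma chain of interleukin receptors, was at 29.2 and 31.1%, 49.1 and 45.9%, 193 and 227%, and 540 and 452% in the same order, with a departure of 0.58 ± 0.22. TSC22D1, a leucine zipper protein gene, rose from 148 and 156% to 934 and 952% with a departure of 0.70 ± 0.18. The departures of ANO10 and ZNF362 were 0.92 ± 0.24 and 0.49 ± 0.18, while that of SRPX2, at 10.9 and 12% in DMSO and 73.1 and 73.9% with both, was -0.30 ± 0.20. None of these departures was called (limma adjusted p of 0.219 or above). Of the 37 probes, 33 had a positive departure with a median of 0.70, but they were chosen for being highest with both inhibitors, which favours that sign. When only probes detected on all 8 arrays were tested, 16 of the 37 were called above all other groups, and no departure was called.

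**Figure D3:**
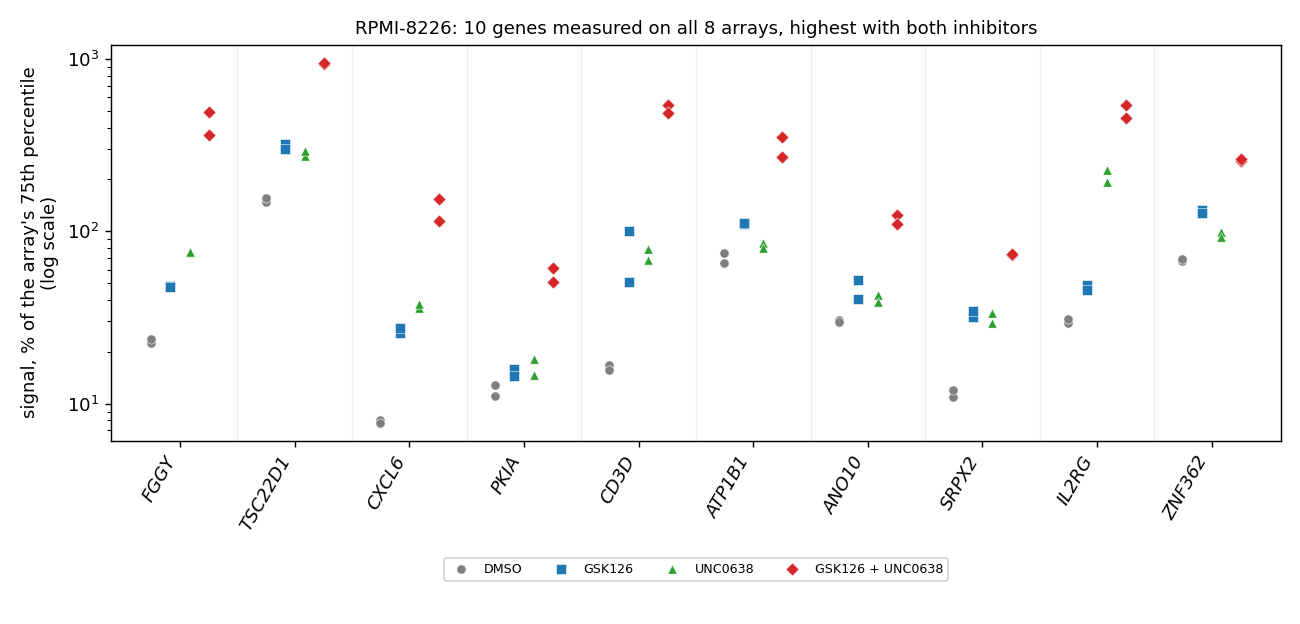
Signal of 10 genes measured on all 8 RPMI-8226 arrays and above all other groups with GSK126 + UNC0638 (horizontal axis, by p-value), as a percentage of the array's 75th percentile on a log scale. Each point is 1 array. For IL2RG the UNC0638 points lie between DMSO and the combination, and for PKIA both single agents lie near DMSO.

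Across the 19932 probes detected on all 8 arrays, the departure had a median of -0.03 and an SD of 0.31. The differences between replicates, with the pairing of the numbers left out, would give an SD of 0.37. At an unadjusted p under 0.05 there were 262 positive and 199 negative departures among these, the lowest adjusted p being 0.219. The called departures all lay among probes not detected in DMSO. The class of detection went with the departure. The probes detected with either agent alone and with both had a median departure of -0.27 (54 probes), those detected with GSK126 and both 0.53 (69 probes), those detected with UNC0638 and both 0.55 (107 probes), and those detected only with both 1.98 (303 probes). These classes are defined from the same signals, and all 4 rest in part on signals below background, so the order is a description.

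**Figure D4:**
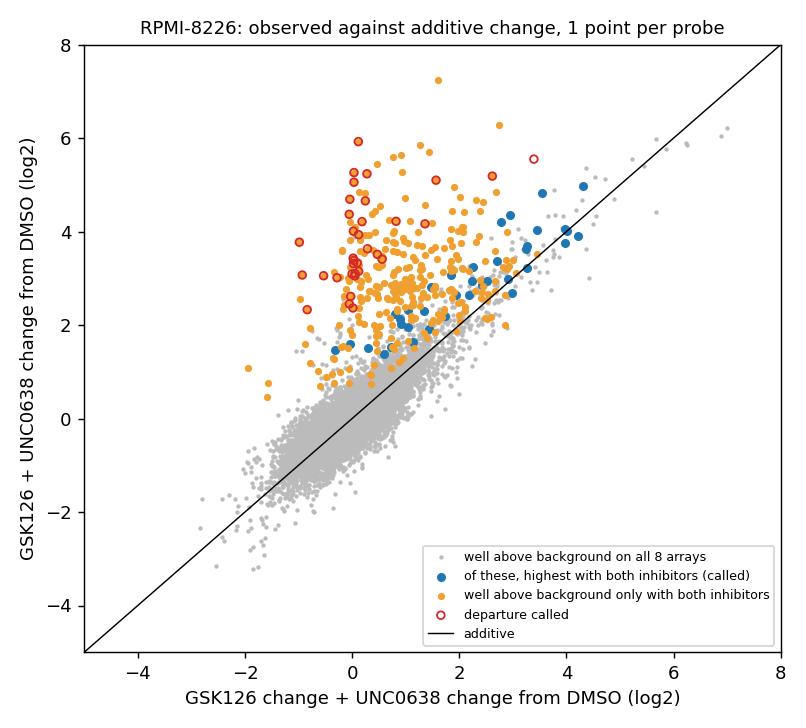
Change with GSK126 + UNC0638 from DMSO (vertical axis, log2) against the sum of the changes with GSK126 and with UNC0638 (horizontal axis, log2), 1 point per probe in RPMI-8226, with the line of additivity. Probes detected on all 8 arrays follow the line, with a median departure of -0.03, whereas 297 of the 303 detected only with both inhibitors lie above it, with a median of 1.98 that includes signals below background, and rings mark the 34 called departures.

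The largest departures among genes measured on all 8 arrays, none of them called, differed between the combination arrays. The other HBG1 probe gave 16 and 13.1% in DMSO, 22.4 and 15.2% with GSK126, 12.8 and 10.5% with UNC0638, and 508 and 90% with both (departure 3.85 ± 1.02, limma adjusted p = 0.727). FBXO32, a ubiquitin ligase gene of muscle atrophy, gave 154 and 45.2% with both against 10.2 to 19.4% elsewhere. The homeobox gene HMBOX1, by 1 of its 4 kept probes, gave 385 and 98.7% against 35.0 to 58.1%. The long noncoding RNA LINC00340, by 1 of its 2 kept probes, gave 1056 and 315% against 106 to 206%. In these 4, GSK126 + UNC0638 replicate 1 was over 3-fold above replicate 2, although both were higher than the other 6 arrays. DHRS2, a short-chain dehydrogenase gene, gave 109 and 60.3% with both against 13 to 32.2%. Outside the measured genes, SPANXA1 and TFPI2 ranked high but were not called, and their departures rest on signals below background. Both reached background on 1 GSK126 array. TFPI2, an inhibitor of coagulation proteases, gave 66.9 and 69.8% with both, 9.55 and 3.05% with GSK126 and 0.973 to 1.26% in the other groups. The odorant receptor gene OR8G5 gave 58.8 and 8.10%, and SPRR2E 52.1 and 26% against 2.04 to 10.6%.

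Departures below additivity were not called, and the largest of them had mixed patterns. CAMKV, a kinase-like gene of neurons, rose with UNC0638 alone to 145 and 133%, from 31.7 and 21.4% in DMSO (limma adjusted p = 0.0120), and was at 33.6 and 41.3% with both (departure -1.47 ± 0.31, limma adjusted p = 0.363). HSPA8, the constitutive heat shock protein, and G3BP1, a stress granule protein, had departures of -1.55 ± 0.34 and -1.40 ± 0.38. CAMKV, HSPA8 and G3BP1 were each read from 1 probe, of 2, 3 and 2 kept. It was the one furthest below additivity among those on all 8 arrays, and the other kept probes are not reported here. The HSPA8 probe was at 15.9 to 25% with a single agent and at 10.1 to 13% in DMSO or with both. BEGAIN, a postsynaptic protein gene, went from 160 and 121% in DMSO to 55.9 and 73.4% with GSK126, 87.8 and 90.8% with UNC0638 and 10.1 and 23.8% with both (departure -1.41 ± 0.56). ATP4B, the gastric proton pump subunit, had a departure of -1.50 ± 0.86. Among dim probes, DOCK9, AGBL4, MGC42157, PSAPL1 and POFUT1 had the lowest values, which include signals below background, and the DOCK9 signal was 144% on 1 GSK126 array against 11.5% on the other.

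The interferon-stimulated genes (ISGs) that the study followed rose with the combination over DMSO, but none of their departures passed the test after adjustment. IFIT1 was at 28 and 43.7% in DMSO, 121 and 55.7% with GSK126, 36.2 and 46.5% with UNC0638, and 195 and 307% with both, with a departure of 1.35 ± 0.61. The departures of ISG15, IFI6 and IRF9 were 0.95 ± 0.32, 0.52 ± 0.61 and 0.37 ± 0.26. OAS3 was below background in DMSO (1.31 and 4.50%) and on 1 UNC0638 array, so that its departure could not be measured. For each of these 5 genes the combination was above DMSO (limma adjusted p from 0.00443 to 0.0164), and for none was it called above all other groups. Among 54 measured members of a type I interferon list, none had a called departure and 36 had a positive one, with a median of 0.18 against -0.02 over all 16062 genes measured. The IRF4 gene, which encodes the survival factor of plasma cells, was at 748 and 589% in DMSO, 536 and 562% with GSK126, 513 and 463% with UNC0638, and 181 and 226% with both. The combination arrays lay below all others, and the departure was -0.99 ± 0.26 (limma adjusted p = 0.712). The departures of MYC, PRDM1 and KLF2 were -0.46 ± 0.26, 0.11 ± 0.30 and 0.26 ± 1.01. The targeted enzymes' own genes, EZH2 and EHMT2, had departures of 0.13 ± 0.20 and -0.37 ± 0.31. None of these was called (limma adjusted p of 0.712 or above).

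Gene lists were counted with 1 probe per gene. Over all 16062 genes measured, 165 were above all other groups. Among 17 measured cancer-testis and germline genes, SSX1 had the only called departure (XAGE3 and FAM9B are not on that list), and PAGE2, an X-linked testis antigen, was above all other groups at 23.4 and 29.7% against 2.83 to 10.2%. Of the 17, 9 had a positive departure. Of 24 measured chemokine and cytokine ligands, none had a called departure and 2, CXCL6 and CCL4, were above all other groups. CCL18 was also above all other groups but is not on that list. Of 22 measured interferon gamma response genes, 2 were above all other groups, and 1 of them, the gene UBD, was at 108 and 94.5% with both, 10 and 8.96% with GSK126 and 1.17 to 2.77% in the other groups. Of 15 measured Fc and Fc-like receptors, 3 were above all other groups. Among them was FCRL3, an Fc receptor-like gene of B cells, detected only with both at 21.9 and 16.8%. Of 10 measured S100 calcium-binding genes, S100A8 and S100A9, which encode the calprotectin of myeloid cells, were both above all other groups. S100A8 was at 737 and 167% with both and at 6.71 to 18.2% with a single agent, and S100A9 at 303 and 108% against 6.32 to 17.2%. HLA-DQA1, of 21 measured MHC genes and with the similar copy HLA-DQA2, was detected only with both by 2 probes, the brighter at 17.7 and 28.1%. That probe was at 5.97 and 5.77% with GSK126, against 1.21 to 1.40% in DMSO or with UNC0638. Its rise with GSK126 was called (limma adjusted p = 0.0243), although none of these signals passed as well above background. In the HOX cluster, 6 of 39 genes were measured, in the G1 and G1-S list 54 of 56, in the G2 and mitosis list 36 of 36, and in the lists of amino acid response, cholesterol synthesis and chromatin machinery 39, 26 and 33. None of these had a called departure or was above all other groups, and the list medians lay between -0.19 and 0.16. The lists of developmental factors outside HOX (18 measured) and of endogenous retrovirus-derived genes (5 measured) had no called departure either, with medians of -0.10 and 0.39. Those of epithelial and secretory genes (21 measured), synaptic and neuronal genes (12), globin genes (6) and the IRF4-MYC axis with plasma cell identity (21) had none and medians of 0.19, -0.34, -0.27 and 0.01. For each of these 4 lists, 1 member was above all other groups, namely PIGR, the epithelial carrier of immunoglobulins, MAP2, a microtubule protein of neurons, the delta globin gene HBD and the B cell antigen gene MS4A1, which were named after their values were seen. A further globin gene, HBG1, was above all other groups by the probe that the list count did not use.

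In MM.1S cells most of these probes were detected on no array or on all. Of the 303 probes, 164 (54.1%) were above background on no MM.1S array and 67 (22.1%) on all 8, against 6.17 and 86.5% of all probes tested in RPMI-8226, and 9 (2.97%) were again detected only with both inhibitors, against 0.211% of all those tested. In MM.1S, 160 probes showed this pattern, so that the 9 shared ones were 5.62% of them. The shared ones included HLA-DQA1 with 2 probes and the neutrophil granule gene OLFM4. Of 25102 probes tested in MM.1S, no departure was called (limma, lowest adjusted p = 0.123, 2411 with an unadjusted p under 0.05; 3 calls without UNC0638 replicate 1, 4 with quantile normalization and 29 with normexp), while 473, or 1.88%, were above all other groups. A set of 16 probes was above all other groups in both lines, 8.16% of the RPMI-8226 set and 3.38% of the MM.1S set, and 1.35% of all probes tested in RPMI-8226 were above all other groups in MM.1S. They included DAB2, DNM3, TSC22D1 and PCSK5.

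For the 34 called probes, 26 were above background on no MM.1S array, and 7 could be compared between the lines. The difference of the departures, RPMI-8226 minus MM.1S, was called for 3 of 21370 probes, or 0.014%, all of them among the 34. Since the RPMI-8226 signals of these 3 were below background in all groups but the combination, the size of the difference could not be measured, and the levels are given as a description. SLN was at 8.75 to 14.7% on every MM.1S array with a departure there of -0.02 ± 0.36. PRKCA was already expressed in MM.1S, at 498 and 531% in DMSO and 665 and 641% with both, with a departure there of -0.05 ± 0.12. DNM3 was at 26.6 and 24.7% in MM.1S DMSO, 37.5 and 32.0% with GSK126, 35.6 and 42.2% with UNC0638, and 80.5 and 104% with both. Its departure there was 0.81 ± 0.23, which was not called (limma adjusted p = 0.407). For each of the 3, the gene was measured on all 8 MM.1S arrays and not detected in RPMI-8226 without both inhibitors. The count was 22 without RPMI-8226 GSK126 replicate 2, 17 without RPMI-8226 GSK126 + UNC0638 replicate 2 and 6 without RPMI-8226 DMSO replicate 1. It was 1 without RPMI-8226 UNC0638 replicate 2, and likewise without MM.1S DMSO replicate 1, either MM.1S GSK126 array, MM.1S UNC0638 replicate 2 or MM.1S GSK126 + UNC0638 replicate 1. With the replicate block it was 6, the 3 included.

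**Figure D5:**
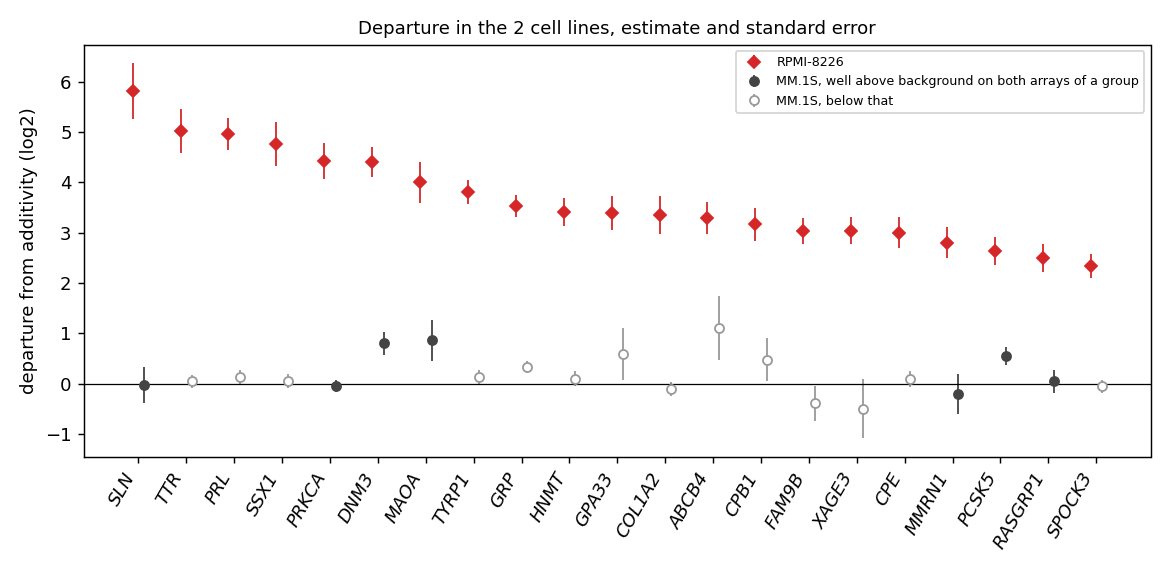
Departure from additivity (vertical axis, log2, estimate with standard error) of 21 named called genes in RPMI-8226 and in MM.1S. The RPMI-8226 values include signals below background and are no measured departures, and open symbols mark genes detected in no MM.1S group. The MM.1S estimates lie between -0.49 and 1.10, and SLN, PRKCA and DNM3 are those for which the difference between lines was called.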

How the data were processed

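Total RNA of 16 samples was hybridized to 1-colour Agilent arrays. The deposited values are spot intensities that the authors extracted with Agilent Feature Extraction 10.7, per the labels, with positions on GRCh37; they carry no normalization between arrays. Deposited flags for detection, outliers and substituted signals were also used, and the series' value table served as an alternative. No authors' comparison columns were used. Here, control and outlier spots were left out, log2 intensities were centred on each array's 75th percentile, spots were averaged per probe, and a probe was kept when some group had both arrays well above background. Departures and contrasts were tested with limma 3.58.1 in R 4.3.3 on group means, with Benjamini-Hochberg adjustment over all kept probes; the fit was checked on simulated data. Each group had 2 arrays, described in the study's legends as biological replications; their number limits the precision. Same-numbered arrays deviated together (r from 0.254 to 0.415 in 6 of 6 group pairs), and the files of a number share a date in their names. The main fit did not use this pairing, which entered only as the replicate block among the alternatives. All RPMI-8226 arrays were on 1 slide and 1 scan. The MM.1S arrays were on a different slide, so differences between the lines cannot be told apart from those between slides. Named genes were the 12 detected only with both inhibitors and above all other groups with the largest lower limit of fold, the 10 largest called departures in each direction among genes on all 8 arrays, the 6 largest in each direction among the rest (where fewer were called, filled to 5 with the largest not called), the genes the study followed, and up to 4 genes per list; the other called genes, the 12 measured genes with the lowest p and neighbouring genes were chosen after their values were seen. Members and lists were chosen with earlier results of these data known. Alternatives changed the normalization, background correction, filter, prior variance, arrays fitted, pairing and each array. A few genes that these rules name are not reported here.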

Additional observations from a re-analysis of the deposited data

Results flagged for a closer look

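The departure from additivity was called as different between the cell lines for 3 probes in limma. The computed difference, RPMI-8226 minus MM.1S, was 5.83 for SLN, 4.47 for PRKCA and 3.60 for DNM3 on the log2 scale. In all 3 the RPMI-8226 signals were below background in DMSO and with each single agent, and the probes entered the test in that line only through the combination, so these values are no measured differences and nothing rests on them. From DMSO to both inhibitors in MM.1S, where all 3 were above background on all 8 arrays, the log2 change was -0.13 for SLN, 0.34 for PRKCA and 1.84 for DNM3.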

How the results depend on the processing

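The count of 34 called departures depended on how dim signals and their variance were treated. It was 4 with normexp background correction, 6 without a filter on dim probes, 6 with the positive and significant flag as filter, 0 when only probes on all 8 arrays were tested, 0 with an intensity-dependent prior variance, 103 in a fit over all 16 arrays (98 positive, 5 negative) and 16 with signals raised to the lowest passing one, an alternative chosen after seeing the data. Leaving out 1 array gave 0 to 49 calls. Quantile normalization, the percentile over detected probes, the series' value table and the mean over a gene's probes gave 29 to 38. Probes above all other groups (196) numbered 16 when only probes on all 8 arrays were tested, 447 over all 16 arrays and 87 to 193 with 1 array left out. Those also detected only with both inhibitors (116) numbered 46 with normexp, 74 with the intensity-dependent prior, 183 over all 16 arrays and 69 to 100 with 1 array left out. The 303 detected only with both inhibitors became 310 to 858 with 1 array left out. MM.1S calls were 4 with quantile normalization, 29 with normexp and 0 to 3 with 1 array left out, and the difference between lines was called for 1 to 22 probes with 1 array left out. The cause of these changes was not tested, except that leaving out an array, or testing fewer probes, changes the tests by construction. Where an array was left out, the remaining one of its group was assumed to vary like the other groups.

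With the replicate number as a block, 53 departures, 368 probes above all other groups and 6 differences between the lines were called, and the block left the MM.1S departures at 0.

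Departures that turned sign, all of genes that were not called and those of OAS3 and S100A9 resting in part on signals below background, ranged with 1 array left out from -0.39 to 1.38 for OAS3, -0.11 to 1.15 for IFI6, -0.47 to 1.00 for KLF2, -0.14 to 0.35 for PRDM1, -0.12 to 0.31 for CXCL6 and -0.018 to 1.47 for S100A9. That of SRPX2 was 0.078 with normexp. Since 2 arrays per group were measured and most signals behind the called departures lay below background, small departures of dim genes were not detectable here.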
